A study of Homo sapiens with 6 samples.

Results

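The aryl hydrocarbon receptor and its best known targets were followed as 7 genes, chosen by name with earlier results of these data known, in MDA-MB-231, an established line of human breast cancer that lacks the estrogen, progesterone and HER2 receptors: the receptor AHR, its DNA-binding partner ARNT, the repressor AHRR, and the targets CYP1A1, CYP1B1, TIPARP and ALDH3A1. All 7 were found among the 61552 gene identifiers of the deposited tables, and all 7 passed the expression filter that left 17084 genes to test. The cells were treated for 24 h with 10 μM VNLG-152R, the compound that the study follows as a degrader of the MNK1/2 kinases, or with its DMSO vehicle. There were 3 RNA samples per group, so the groups share the cell line and the time and differ in the compound. The methods of the study describe the RNA samples as triplicates and, for the values in its figures in general, speak of independent experiments. Whether these 3 RNA samples were such is not said of them, so p-values here reflect the spread among these samples alone, which may be technical.

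The aryl hydrocarbon receptor is a ligand-activated transcription factor of the bHLH-PAS family. Without ligand it is held in the cytosol by HSP90 and its cochaperone p23 (gene PTGES3). Once a planar aromatic ligand or a tryptophan metabolite binds, it moves to the nucleus, pairs with ARNT and binds the xenobiotic response element. Its classical targets are enzymes that oxidize foreign and endogenous compounds, and among the targets are also its own brakes: AHRR competes with it for ARNT, and TIPARP (PARP7) attaches ADP-ribose to it. In breast cells the cytochromes CYP1A1 and CYP1B1 are best known for hydroxylating estradiol and aromatic hydrocarbons.

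Libraries held 60122936 to 68583224 counts assigned to genes in vehicle controls and 69923839 to 82151816 after VNLG-152R, so the treated libraries were all deeper. Read pairs in no annotated gene were 2.63% to 3.17% in controls and 3.36% to 5.05% after VNLG-152R, the highest being replicate 2. Log2 fold changes were higher for genes with longer exons over the 12847 genes with a length and a mean of at least 1 CPM, the counts of a gene per 1000000 counts of its library (Spearman's rho 0.33, a description across genes, which are not replicates). Values after thinning every library to the shallowest one, and after a correction for exon length, therefore stand beside each of the 7 genes. Of 5 genes listed from general knowledge as high in this line, VIM, CD44, AXL and CAV1 averaged 237.6 CPM or more in each group. SPARC, also listed, was not high, at 0.722 CPM in controls and 0.641 CPM after VNLG-152R. VIM and CAV1 were lower after VNLG-152R (log2 fold changes -0.39 and -0.60, edgeR adjusted p = 0.0472 and 0.0048), and the VIM call held in only 1 of the 6 fits that left out a library. Of 5 genes known to be low, the summed level was 18.0 to 22.1 CPM in controls and 16.7 to 18.1 CPM after VNLG-152R, mostly EPCAM, and ESR1 had at most 8 counts in a library. Leukocyte markers (4 genes) summed to 2.88 to 3.35 and 2.13 to 3.15 CPM, nearly all CD14, with PTPRC at 1 or 2 counts. Endothelial markers (3 genes) summed to 21.4 to 24.6 and 23.2 to 26.6 CPM, nearly all PECAM1. Hepatocyte markers (3 genes) summed to at most 0.183 CPM, with TTR at 0 in every library. The part of VIM, CAV1 and of the marker sums in the results for the receptor genes was not tested.

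The receptor complex recognizes DNA through a short core, GCGTG, which reads CACGC on the other strand. RefSeq start sites on GRCh38.p14 were found for 5 of the 7 genes, namely AHR, ARNT, AHRR, CYP1A1 and TIPARP, and the 250 bases before each start were searched on both strands for these letters. No sequence was matched for CYP1B1 and ALDH3A1. Sequence farther upstream was not searched, so elements lying there would not be seen for any gene. The core was present before CYP1A1, before both starts of AHRR and before 1 of 3 starts of TIPARP, and the letters were not in the windows of AHR and ARNT. It occurs in 32.2% of all 35116 windows of this length, so its presence alone sets no gene apart. The longer form TNGCGTG, which contains the core, occurs in 4.52% of them. In the windows of these genes it occurs only before the first start of AHRR, where the core begins at position -30 relative to the start. In CYP1A1 the core begins at -57, and in TIPARP at -208 and -142, both times read on the other strand. Before the second start of AHRR, in a window not shown, it begins at -247 and -42. Windows with the core are shown for CYP1A1 and TIPARP, which were called higher, and for the first start of AHRR, the receptor's own repressor. They run 5′ to 3′ on the strand of the gene, with the core in capitals; they lie at chr15:74725529-74725778 (minus strand), chr5:321464-321713 (plus strand) and chr3:156674340-156674589 (plus strand).

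CYP1A1: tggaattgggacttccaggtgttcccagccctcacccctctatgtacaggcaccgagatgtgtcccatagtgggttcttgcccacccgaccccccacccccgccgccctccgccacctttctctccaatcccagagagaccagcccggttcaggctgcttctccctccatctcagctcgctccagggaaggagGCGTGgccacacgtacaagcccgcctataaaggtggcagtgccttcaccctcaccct

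AHRR: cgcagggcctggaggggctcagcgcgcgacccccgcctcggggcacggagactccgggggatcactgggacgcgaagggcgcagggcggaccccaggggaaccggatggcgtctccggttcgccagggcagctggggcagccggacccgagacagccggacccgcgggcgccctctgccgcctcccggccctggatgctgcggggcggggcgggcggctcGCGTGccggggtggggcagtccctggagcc

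TIPARP: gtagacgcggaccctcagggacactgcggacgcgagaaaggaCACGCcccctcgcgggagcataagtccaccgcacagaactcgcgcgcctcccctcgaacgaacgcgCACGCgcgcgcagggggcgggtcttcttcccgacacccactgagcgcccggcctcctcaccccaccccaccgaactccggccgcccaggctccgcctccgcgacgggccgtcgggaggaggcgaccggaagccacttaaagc

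Levels of the receptor itself did not separate the groups. AHR (chromosome 7, 16916359 to 17346152) stood at 54.2, 41.6 and 36.6 CPM in vehicle control replicates 1 to 3 and at 38.2, 46.7 and 46.9 CPM in VNLG-152R replicates 1 to 3. Library size was adjusted by TMM, which corrects for differences in library composition. Control replicate 1 was the highest of the 6 libraries and control replicate 3 the lowest, so the groups overlapped fully. The means were 44.1 ± 9.10 and 44.0 ± 4.94 CPM (SD, n = 3 each), and the log2 fold change was -0.0047 with a 95% interval from -0.30 to 0.29 (edgeR quasi-likelihood test, Benjamini-Hochberg adjusted p = 0.990). Without control replicate 1 the log2 fold change was 0.17 (edgeR adjusted p = 0.461), thinning gave -0.02 and the length correction -0.06. Of the AHR exon bases, 29.4% are shared on the same strand with the gene model AC019117.2, which had 0 counts in every library. Reads lying wholly there would be ambiguous if the counting used both models, and the AHR count would leave them out. How reads lying partly there were counted is not given in the sources used here.

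ARNT (chromosome 1, 150809705 to 150876768), the shared partner of AHR and of the hypoxia-inducible factors, had 39.4, 47.5 and 47.8 CPM in controls and 50.1, 46.0 and 48.8 CPM after VNLG-152R. Control replicate 1 was the lowest, and the other 5 libraries lay close together. The log2 fold change was 0.11 (standard error 0.09, 95% interval -0.10 to 0.31, edgeR adjusted p = 0.542). It was 0.11 after thinning and 0.08 after the length correction. In control replicate 1 ARNT was thus at its lowest where AHR was at its highest, and the ratio of ARNT to AHR, per length of exon, was 0.901 there against 1.42 and 1.62 in the other controls and 1.63, 1.22 and 1.29 after VNLG-152R. The size of these ratios also depends on the shared AHR exon bases described above.

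AHRR (chromosome 5, 304176 to 438291), the repressor, was the least abundant of the 7, also per length of exon, with 33, 49 and 34 counts in controls and 76, 79 and 75 after VNLG-152R. Scaled to depth this was 0.542, 0.814 and 0.499 CPM against 1.12, 1.03 and 0.906 CPM. Each treated library was above each control, as in 15.1% of all tested genes. The log2 fold change of 0.72 (standard error 0.24, 95% interval 0.21 to 1.24) did not pass the threshold (edgeR adjusted p = 0.0993, unadjusted p = 0.01). The adjusted p ran from 0.0606 without control replicate 2 to 0.307 without control replicate 3 when libraries were left out, and the gene was not called in any of the 6 fits that left out a library or the 8 other alternatives that tested it. Thinning gave a log2 fold change of 0.73 and the length correction 0.68. Of its exon bases, 3.18% are shared with PDCD6, an apoptosis-linked calcium-binding gene on the same strand, where reads are ambiguous between the genes.

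**Figure D1:**
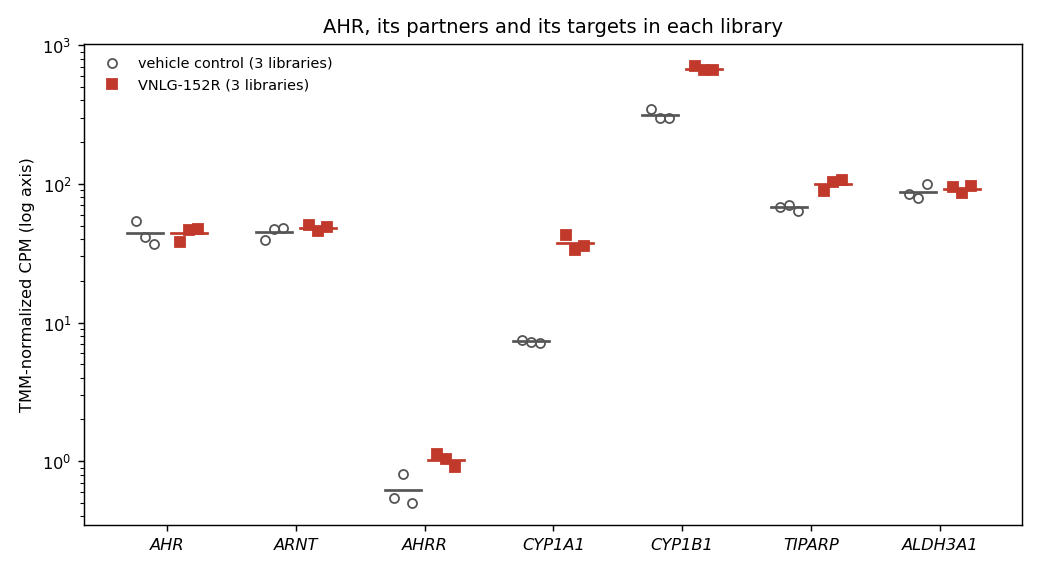
Level of 7 genes in CPM (log axis), namely AHR, ARNT, AHRR, CYP1A1, CYP1B1, TIPARP and ALDH3A1, with open grey circles for the 3 vehicle control libraries, red squares for the 3 VNLG-152R libraries and lines for the group means. CYP1A1 moved from 7.31 to 37.2 CPM, CYP1B1 from 314 to 678 and TIPARP from 67.6 to 99.2, whereas the points of AHR, ARNT and ALDH3A1 overlap.

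Of the 7 genes, 3 were higher after VNLG-152R at an adjusted p under 0.05 and 0 were lower, beside 3.76% of all tested genes called higher, 1.43% called lower and 5.19% called in either direction. In 4 of the 7, the treated libraries all lay above the controls, and in 0 they all lay below (15.1% and 13.4% of all tested genes). The 3 called genes were CYP1A1, CYP1B1 and TIPARP. The 7 genes had a median log2 fold change of 0.55, against -0.0024 over all tested genes. Because the 7 were chosen with earlier results of these data known, these counts and the median are descriptions. They are no independent test of the set. From bulk RNA, more RNA per cell and more cells expressing a gene cannot be told apart.

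CYP1A1 (chromosome 15, 74719542 to 74725610, minus strand), the cytochrome most often used to read out the receptor, showed the largest change of the 7. It was at 7.48, 7.26 and 7.18 CPM in vehicle controls, a range narrower than for any other of the 7 genes relative to its mean, and at 43.1, 33.2 and 35.5 CPM after VNLG-152R. The lowest treated library was thus far above the highest control. The means were 7.31 ± 0.156 and 37.2 ± 5.17 CPM (SD, n = 3 each), with a fitted fold change of 5.10. The log2 fold change was 2.35 (standard error 0.11, 95% interval 2.11 to 2.59, edgeR adjusted p = 1.51e-07). By p it ranked 2 among the 17084 tested genes, and by log2 fold change it ranked 12. It was 2.24 to 2.43 when each library was left out, 2.37 with every library thinned to the depth of the shallowest and 2.39 after the length correction.

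CYP1B1 (chromosome 2, 38066973 to 38109902, minus strand), which hydroxylates estradiol and also oxidizes retinoids, was already the most abundant of the 7 in controls, also per length of exon. Its levels were 347, 296 and 299.6 CPM there and 710, 662 and 661 CPM after VNLG-152R. No treated library came near the control range. The means were 314 ± 28.1 and 678 ± 28.3 CPM (SD, n = 3 each), with a fitted fold change of 2.16 and a log2 fold change of 1.11 (standard error 0.09, 95% interval 0.91 to 1.31, edgeR adjusted p = 2.13e-05). It ranked 24 by p and 180 by log2 fold change. Leaving out each library gave 1.06 to 1.18, thinning gave 1.11 and the length correction 1.09.

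TIPARP (chromosome 3, 156673235 to 156706770), the ADP-ribosyltransferase that limits receptor signaling, rose less. It stood at 68.5, 70.8 and 63.6 CPM in controls and at 88.6, 103 and 106 CPM after VNLG-152R. Replicate 1 was the lowest of the treated libraries and still above each control. The means were 67.6 ± 3.66 and 99.2 ± 9.26 CPM (SD, n = 3 each), with a fitted fold change of 1.47 and a log2 fold change of 0.55 (standard error 0.09, 95% interval 0.35 to 0.75, edgeR adjusted p = 0.00508). It remained called when each library was left out, with log2 fold changes of 0.50 to 0.63 and an adjusted p of at most 0.0432, without control replicate 3. It was 0.56 both after thinning and after the length correction.

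ALDH3A1 (chromosome 17, 19737984 to 19748943, minus strand) oxidizes aromatic and medium-chain aldehydes and belongs to the classical receptor battery in liver. It was not called. It had 84.3, 78.7 and 99.6 CPM in controls and 94.5, 85.3 and 95.9 CPM after VNLG-152R, and control replicate 3 was above every treated library. The log2 fold change was 0.07 (standard error 0.10, edgeR adjusted p = 0.716), and its 95% interval of -0.14 to 0.28 lies below the intervals of CYP1A1, CYP1B1 and TIPARP. Thinning gave 0.07 and the length correction 0.10.

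**Figure D2:**
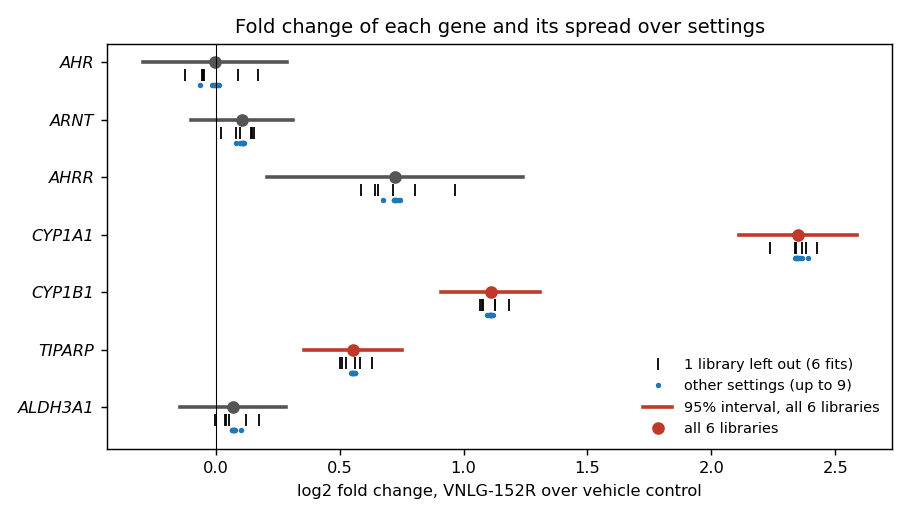
Log2 fold changes of the 7 genes, treated over control, each as a point with its 95% interval from all 6 libraries (red at an adjusted p under 0.05, grey otherwise), with black ticks for the 6 fits that leave out 1 library and blue dots for the other settings. The intervals of CYP1A1 (2.11 to 2.59), CYP1B1 (0.91 to 1.31) and TIPARP (0.35 to 0.75) do not touch each other, and those of AHR, ARNT and ALDH3A1 span 0.

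The order of the genes was compared as CPM per kilobase of exon, which sets the level of each gene against the summed length of its annotated exons (GENCODE release 29), whichever transcripts the cells use. In vehicle controls CYP1B1 led with 52.2 ± 4.67 CPM per kilobase, followed by ALDH3A1 with 22.3 ± 2.76, TIPARP with 13.4 ± 0.725, ARNT with 6.89 ± 0.732, AHR with 5.46 ± 1.13, CYP1A1 with 2.13 ± 0.0453 and AHRR with 0.0805 ± 0.0222 (SD, n = 3 each). Library values of ARNT and AHR overlapped in controls, and all other neighbors in this order were apart. With VNLG-152R, CYP1A1 moved up to 10.8 ± 1.505 CPM per kilobase, past AHR at 5.44 ± 0.612 and ARNT at 7.41 ± 0.322. CYP1B1 reached 113 ± 4.71, ALDH3A1 was at 23.5 ± 1.47, TIPARP at 19.6 ± 1.83 and AHRR at 0.133 ± 0.0142, and no neighbors in the order overlapped. The AHR length includes the 29.4% of its exon bases shared with AC019117.2, where reads may have been left out. Its level per kilobase may thus be too low, and its order beside ARNT is uncertain in both groups.

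**Figure D3:**
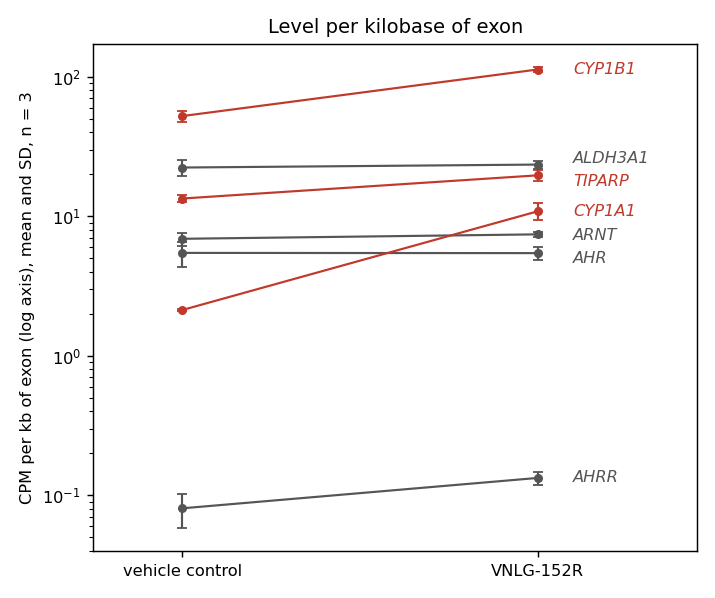
Mean level per kilobase of exon on a log axis in vehicle controls and after VNLG-152R, with SD bars (n = 3 each). CYP1A1 goes from 2.13 to 10.8 CPM per kilobase and crosses the lines of AHR and ARNT, while CYP1B1 stays on top at 52.2 and 113.

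RNA of both CYP1 genes rose, but not in proportion. The ratio of CYP1A1 to CYP1B1, per length of exon and free of any library scaling, was 0.0378, 0.0429 and 0.0420 in controls and 0.106, 0.0877 and 0.0941 after VNLG-152R. Every treated library was above every control, and the mean ratio was 2.35 times as high. These ratios are given without a test. Per length of exon, CYP1B1 RNA still exceeded that of CYP1A1 in each library. The ratio of AHRR to AHR was 0.0105, 0.0206 and 0.0144 in controls and 0.0309, 0.0233 and 0.0203 after VNLG-152R, and here VNLG-152R replicate 3 fell within the control range.

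The genes around the 7 were read to see whether a whole locus moved. CYP1A2, the liver cytochrome that lies 23234 bases from CYP1A1 in the opposite direction of transcription, had a single count in control replicate 3 and in VNLG-152R replicate 2 and none elsewhere. EDC3, a decapping factor on the other side of CYP1A1, had a log2 fold change of 0.07 (edgeR adjusted p = 0.679). ATL2, the next coding gene above CYP1B1, was at 0.0092 (edgeR adjusted p = 0.971), and RMDN2, which overlaps its end, at -0.03 (edgeR adjusted p = 0.928). Of the 14 nearest coding neighbors of the 7 genes, 9 were tested and 1 was called, beside 5.19% of all tested genes called in either direction. The called neighbor was PDCD6, beside AHRR, with 502, 436 and 480 counts in controls and 749, 1233 and 744 after VNLG-152R (log2 fold change 0.68, edgeR adjusted p = 0.0444). VNLG-152R replicate 2 stood apart there, and without it the log2 fold change was 0.42 (edgeR adjusted p = 0.0977). The call was also lost without any 1 of the 3 controls and, with all 6 libraries, under scaling by library size only (edgeR adjusted p = 0.0609), limma-voom (adjusted p = 0.0682) and the length correction (edgeR adjusted p = 0.0965).

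Noncoding genes at the CYP1B1 locus moved with it. CYP1B1-AS1, whose exons lie opposite 11.3% of the CYP1B1 exons, had 95, 101 and 132 counts in controls and 177, 224 and 231 after VNLG-152R (log2 fold change 0.69, edgeR adjusted p = 0.0257). RMDN2-AS1, on the strand of CYP1B1 and sharing 1.15% of its exons, had 12, 11 and 10 counts against 26, 54 and 39 (log2 fold change 1.57, edgeR adjusted p = 0.0207). Neither call held throughout when a library was left out: CYP1B1-AS1 was called in 1 and RMDN2-AS1 in 3 of the 6 fits. The log2 fold changes in those fits ran from 0.62 to 0.78 for CYP1B1-AS1 and from 1.29 to 1.74 for RMDN2-AS1. The libraries were strand-specific, but the strand setting of the counting is not given in the sources used here, so reads of CYP1B1 and of these genes cannot be told apart with certainty. CYP1B1 itself had at least 17852 counts in each library.

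The wider pathway was described with 8 lists holding 83 further genes, of which 65 passed the filter. Of these, 5 rose, 0 fell and 60 did not pass the test, with a median log2 fold change of 0.06. All tested genes had a median of -0.0024, with 3.76% called higher. The lists, too, were chosen with earlier results of these data known.

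Genes that hold and regulate the receptor were mostly not called. None of the 4 genes of the cytosolic complex passed the test, and their median log2 fold change was -0.15. HSP90AA1 and HSP90AB1, the chaperone genes, were at -0.33 and -0.19 (edgeR adjusted p = 0.141 and 0.248), with all 3 treated libraries below the controls, as in 13.4% of all tested genes. Of 10 tested relatives of the bHLH-PAS family none was called (median 0.09), with HIF1A at 0.06 and EPAS1 at 0.24. Among 12 coregulators and degradation factors (median 0.14), 1 rose. This was NCOA3, a steroid receptor coactivator, from 59.5 to 75.5 CPM (log2 fold change 0.34, edgeR adjusted p = 0.0399). It was not called after the length correction (0.28, edgeR adjusted p = 0.0796) or without any 1 library other than VNLG-152R replicate 1.

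Other reported targets of the receptor gave a mixed picture. Of 16, 11 were tested, and 2 rose and none fell (median log2 fold change 0.12). CYP2S1, a cytochrome found in epithelia, had 630, 745 and 882 counts in controls and 1313, 1313 and 1423 after VNLG-152R, with a log2 fold change of 0.59 (edgeR adjusted p = 0.00771). SERPINB2, an inhibitor of plasminogen activators, had 77, 84 and 82 counts against 150, 204 and 185, with a log2 fold change of 0.88 (edgeR adjusted p = 0.0107; 0.0672 without control replicate 3). The treated libraries lay above the controls for both, as in 15.1% of all tested genes. NQO1, a quinone reductase shared with NRF2, was abundant, at 488 and 482 CPM (log2 fold change -0.02, edgeR adjusted p = 0.933). SLC7A5, the carrier of tryptophan and its metabolites, and ABCG2, a drug exporter, had log2 fold changes of 0.34 and 0.32 that did not pass (edgeR adjusted p = 0.114 and 0.0777). UGT1A1, UGT1A6, GSTA1 and GSTA2, conjugating enzymes of liver, had at most 1 count in a library.

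Of 12 enzymes of tryptophan metabolism, which include ones that use up kynurenine, 6 were tested, and IDO1 alone was called (list median 0.03). IDO1, which opens the indole ring of tryptophan on the way to kynurenine, had 73, 70 and 77 counts in controls and 139, 252 and 199 after VNLG-152R. The log2 fold change was 1.15 (edgeR adjusted p = 0.00603). It was called in all 6 fits that left out a library, at 0.94 to 1.29. TDO2, the liver enzyme of the same step, had 0 counts in every library. KYNU, which cleaves kynurenine, was abundant and stood at -0.15 (edgeR adjusted p = 0.319).

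No gene was called among the 6 partner enzymes of the CYP1 cytochromes (median log2 fold change -0.08). POR, the reductase that supplies their electrons, was at 0.22 (edgeR adjusted p = 0.284). None of 5 tested relatives of ALDH3A1 was called either (median 0.05), with ALDH3B1 at 0.33 (edgeR adjusted p = 0.0872). Of 11 relatives of TIPARP in the PARP family (median 0.03), 1 rose. PARP14, a mono-ADP-ribosyltransferase linked to interferon responses, went from 58.3 to 76.3 CPM (log2 fold change 0.39, edgeR adjusted p = 0.0136). It was not called after the length correction (0.28, edgeR adjusted p = 0.0582) or in 3 of the 6 fits that left out a library, namely control replicates 2 and 3 and VNLG-152R replicate 3.

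**Figure D4:**
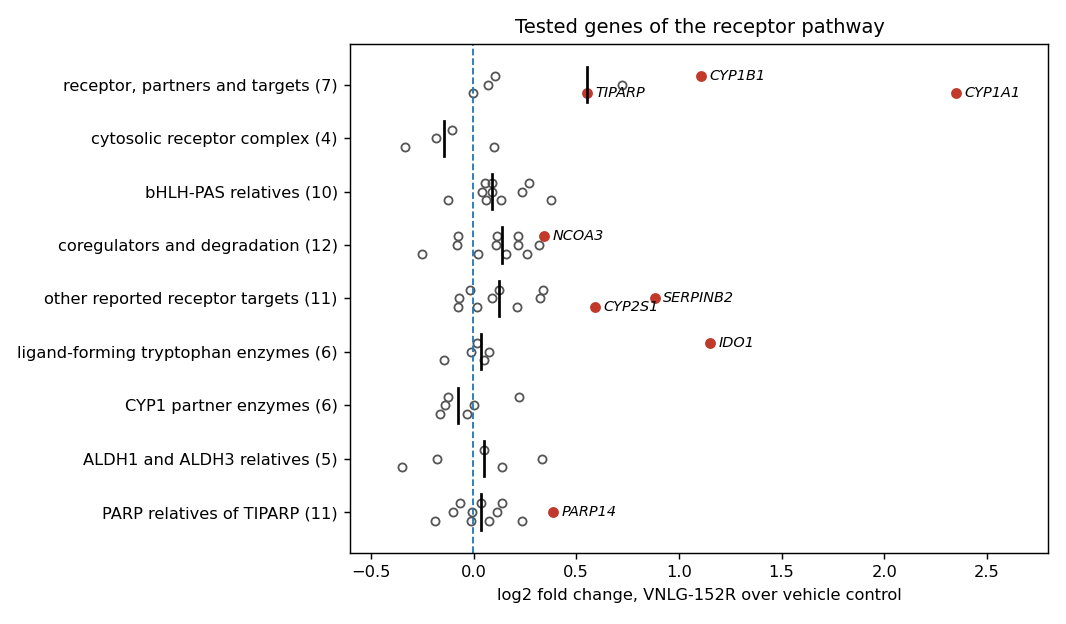
Log2 fold change, treated over control, for each tested gene in the 7-gene set and in the 8 pathway lists, with the number tested in brackets. Filled red points had an adjusted p under 0.05 and are named, open points did not pass, black bars are list medians (0.55 for the 7 genes, -0.15 to 0.14 for the lists) and the dashed blue line is the median of all tested genes. The list labeled as ligand-forming also holds enzymes that use up kynurenine.

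Genes with the most similar pattern over the 6 libraries were found by the root mean square difference of log2 CPM, each gene being set to 0 at its control mean. For CYP1A1 these were the epithelial transcription factor ELF3 (0.17), the sterol sensor INSIG1 (0.21) and the lipase LIPG (0.21), whose log2 fold changes were 2.30, 2.41 and 2.45. For CYP1B1 they were NAV2-AS6 (0.11), the thrombin receptor F2RL3 (0.11) and ABCA13 (0.11), with log2 fold changes of 1.24, 1.04 and 1.04. TIPARP was closest to the histone deacetylase HDAC9 (0.04), the isocitrate dehydrogenase IDH1 (0.05) and the phosphatase PDP1 (0.05). AHR was closest to EFCAB7 (0.04), RAD54B (0.04) and TMED7 (0.04), which shared its high value in control replicate 1 and were not called. All these genes were picked for their likeness over the same libraries, so their similar values and fold changes follow from the choice.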

How the data were processed

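RNA of 3 vehicle control and 3 VNLG-152R samples was read from both ends as strand-specific polyA libraries. The authors deposited 1 table per sample of whole-number counts for Ensembl genes. The submitters' processing notes name HISAT, HTSeq, DESeq and the build GRCh38, with the versions, annotation release and strand setting not given in the sources used here. Special HTSeq classes (read pairs in no gene, 2.63% to 5.05%, ambiguous, not uniquely aligned) were left out of library totals. Symbols came from a table of gene names, which named all 7 genes, coordinates and exon lengths from GENCODE release 29 on GRCh38, and promoter sequences from RefSeq on GRCh38.p14.

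Tests used edgeR 4.0.16 (R 4.3.3): quasi-likelihood fits on TMM-scaled libraries of genes kept by filterByExpr, with Benjamini-Hochberg adjustment over 17084 genes and a threshold of 0.05. Standard errors are the log2 fold change over the square root of F, and 95% intervals are unadjusted. An exact permutation test of 3 against 3 samples could not reach the threshold and was not used. Alternatives were other scalings and filters, DESeq2 1.42.0, limma-voom (limma 3.58.1), a replicate block, each library left out, thinning (seed 1) and a lowess correction for exon length (span 0.3). The fits were also run on simulated counts with the same dispersion for all genes and no trend with exon length. The outcome is not given here and lends no weight to the calls.

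The 7 genes and the lists were chosen with earlier results of these data known. Lists were written from general knowledge. Named genes are the 7, every called gene of a list, called neighbors, and the 3 genes nearest in pattern to CYP1A1, CYP1B1, TIPARP and AHR among genes with a symbol and a mean of at least 1 CPM. Other list genes, neighbors and overlapping genes were named for their role after their values were seen.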

Additional observations from a re-analysis of the deposited data

How the results depend on the processing

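CYP1A1, CYP1B1 and TIPARP were called higher in all 6 fits that left out a library and all 9 other alternatives, and AHR, ARNT, AHRR and ALDH3A1 in none; with a filter at a mean of 1 CPM, AHRR was not tested. Log2 fold changes over those 9 were 2.34 to 2.39 for CYP1A1, 1.09 to 1.12 for CYP1B1 and 0.55 to 0.56 for TIPARP. AHR, near 0, turned positive with library size only (0.00067), a mean of at least 1 CPM (0.0042), limma-voom (0.011) and the replicate block (0.0092), and ran from -0.12 to 0.17 when a library was left out. ALDH3A1 ran from -0.0039, without control replicate 2, to 0.17. Over all tested genes, 642 higher and 245 lower calls became 1056 and 483 with no filter, 917 and 537 with DESeq2, which gave a p for 32258 genes before its own filtering, so that both tool and gene set differed, and 310 and 87 with the replicate block, and ranged from 220 to 601 and from 44 to 347 when a library was left out, the lowest without control replicate 3. Same-numbered samples did not deviate together (correlations -0.19, -0.17 and -0.11), so the numbers were not taken as pairs, and the block changed no call among the 7 genes. Of the other named genes, NCOA3, PARP14 and CYP1B1-AS1 were not called with it (edgeR adjusted p = 0.136, 0.0869 and 0.0652), nor was VIM (0.153). In the lists, 1 relative of ALDH3A1 was called higher with DESeq2, and 0 coregulators and 0 PARP relatives after the length correction. When a library was left out, higher calls ranged from 0 to 1 for coregulators (lower calls 0 to 1), 0 to 1 for PARP relatives and 1 to 3 for other reported targets. The cause of these shifts was not tested. Among the 7 genes AHRR had the fewest counts, 33 to 79 a library.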

Other observations

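Of the 83 further pathway genes, 18 stayed under the expression filter and were not tested. IDO2, a relative of IDO1, was the gene among them with no count in any control and counts in every treated library, at 4, 3 and 6; it was singled out after its values were seen. CYP1A2, HIF3A, UGT1A6, GSTA1 and KMO had 0 to 3 counts in each library, and NPAS4, SIM1, UGT1A1, GSTA2 and TDO2 had 0 throughout.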
